A study of Mus musculus with 3 samples.

Results

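The transcripts described here are those encoded by the mitochondrial genome itself, taken as every gene whose mouse symbol starts with mt-. Of the 37 such genes in the GENCODE M21 annotation, 15 had a row in the deposited count table of 19723 genes, and the same 15 had a row in the deposited FPKM table (fragments per kilobase of gene, scaled to depth). They were 2 of 2 ribosomal RNA genes, 12 of 13 messenger genes and 1 of 22 transfer RNA genes. The other 22 genes, mt-Atp8 and 21 transfer RNA genes, were not analysed here. All mice were female BALB/c, 6 to 8 weeks old, and RNA was sequenced from pooled, sorted cells with 1 library per group and therefore no replicates. The alisertib library held myeloid-derived suppressor cells (MDSCs, immature myeloid cells that restrain T cells) pooled from 20 tumours after treatment of the hosts with alisertib, which inhibits the mitotic kinase Aurora A. The control library held MDSCs pooled from 20 tumours of control mice, which the labels call both untreated and control treated, and the bone marrow library held neutrophils from 5 WT mice without tumours. The sort is stated to have reached a purity above 90%, and the sources used here give no sort markers, tumour line, dose or RNA selection. Raw counts summed to between 19373087 and 21987097 per library.

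The mitochondrial genome is a small circle kept in many copies per cell. It encodes the RNAs of the mitochondrial ribosome, the transfer RNAs that this ribosome reads with, and a few hydrophobic core subunits of the respiratory chain (complexes I, III and IV) and the ATP synthase. All other subunits are encoded in the nucleus, translated in the cytosol and imported. Both strands are transcribed as long precursors that are cut at the transfer RNAs, and the stability of each product then sets its level. Neutrophils are known for low respiration and reliance on glycolysis.

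The ribosomal RNAs were the most abundant mitochondrial transcripts in both tumour libraries. mt-Rnr1 (ENSMUSG00000064337, chrM:70-1024, plus strand, GRCm38), the RNA of the small ribosomal subunit, had an FPKM of 1497 in the alisertib, 3005 in the control and 307 in the bone marrow library. Among all genes of the FPKM table it ranked 18, 12 and 113 in that order. mt-Rnr2 (ENSMUSG00000064339, chrM:1094-2675, plus strand), the RNA of the large subunit, had an FPKM of 1769, 2265 and 532 in the same order, and ranked 14, 18 and 47. Both genes were highest in the control library and lowest in bone marrow. In bone marrow the FPKM of mt-Rnr1 was below that of a messenger, mt-Co1.

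Among the messengers, mt-Co1 (ENSMUSG00000064351, chrM:5328-6872, plus strand), the catalytic subunit of complex IV, had the highest FPKM in every library, at 695 in the alisertib, 871 in the control and 502 in the bone marrow library. mt-Cytb (ENSMUSG00000064370, chrM:14145-15288, plus strand), the cytochrome b of complex III, came next with 251, 210 and 178. mt-Nd1 (ENSMUSG00000064341, chrM:2751-3707, plus strand), a membrane subunit of complex I as are the other mt-Nd products, had 155, 108 and 112. The order of these 3 genes was the same in the 3 libraries, but the library with the highest value was the control for mt-Co1 and the alisertib library for mt-Cytb and mt-Nd1.

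The remaining complex I messengers covered a wide range of FPKM. mt-Nd2 (ENSMUSG00000064345, chrM:3914-4951, plus strand) had 93.7 in the alisertib, 58.9 in the control and 52.2 in the bone marrow library. mt-Nd4 (ENSMUSG00000064363, chrM:10167-11544, plus strand) had 95.1, 87.1 and 67.2, and mt-Nd5 (ENSMUSG00000064367, chrM:11742-13565, plus strand) had 96.6, 68.6 and 51.6. mt-Nd6 (ENSMUSG00000064368, chrM:13552-14070), the only messenger among the members on the minus strand, had 41.3, 25.9 and 19.7. All 4 were highest in the alisertib library and lowest in bone marrow. mt-Nd5 and mt-Nd6 overlap by 14 bases on opposite strands, and the strand setting of the counting is not given, so reads of those bases cannot be told apart.

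The other 5 messengers had FPKM values between 1.01 and 18.9, below every value of the 7 described so far. mt-Co2 (ENSMUSG00000064354, chrM:7013-7696), a complex IV subunit that accepts electrons from cytochrome c, had 16.1 in the alisertib, 18.9 in the control and 13.1 in the bone marrow library. mt-Co3 (ENSMUSG00000064358, chrM:8607-9390), the remaining complex IV subunit, had 12.6, 13.5 and 9.57, and mt-Atp6 (ENSMUSG00000064357, chrM:7927-8607), which forms the proton path of the ATP synthase, had 14.2, 14.0 and 7.24. For these 3 genes bone marrow was lowest. mt-Nd3 (ENSMUSG00000064360, chrM:9459-9806) had 2.29, 1.15 and 1.23, and mt-Nd4l (ENSMUSG00000065947, chrM:9877-10173) had 2.21, 1.34 and 1.01. These 2 complex I genes were counted by 7 to 17 reads per library and did not reach 1 CPM (counts per 1000000 after scaling of the library) in any library. All 5 lie on the plus strand. mt-Nd4l and mt-Nd4 share 7 bases, and mt-Atp6 and mt-Co3 share 1.

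The single transfer RNA gene with a row was mt-Tp (ENSMUSG00000064372, chrM:15356-15422, minus strand), the transfer RNA for proline. Its sequence is shown because it is the only member of its class that could be measured. The capitals mark the anticodon, found as the centre of the 7-base loop closed by a 5-base stem (GENCODE M21 transcript, GRCm38).
mt-Tp: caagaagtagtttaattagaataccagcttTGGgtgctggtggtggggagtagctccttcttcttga
Its counts were 84 in the alisertib, 138 in the control and 77 in the bone marrow library, or an FPKM of 58.7, 103 and 49.3. The control library was highest and the other 2 were close together. A single gene of 67 bases cannot stand for the other 21 transfer RNA genes.

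**Figure D1:**
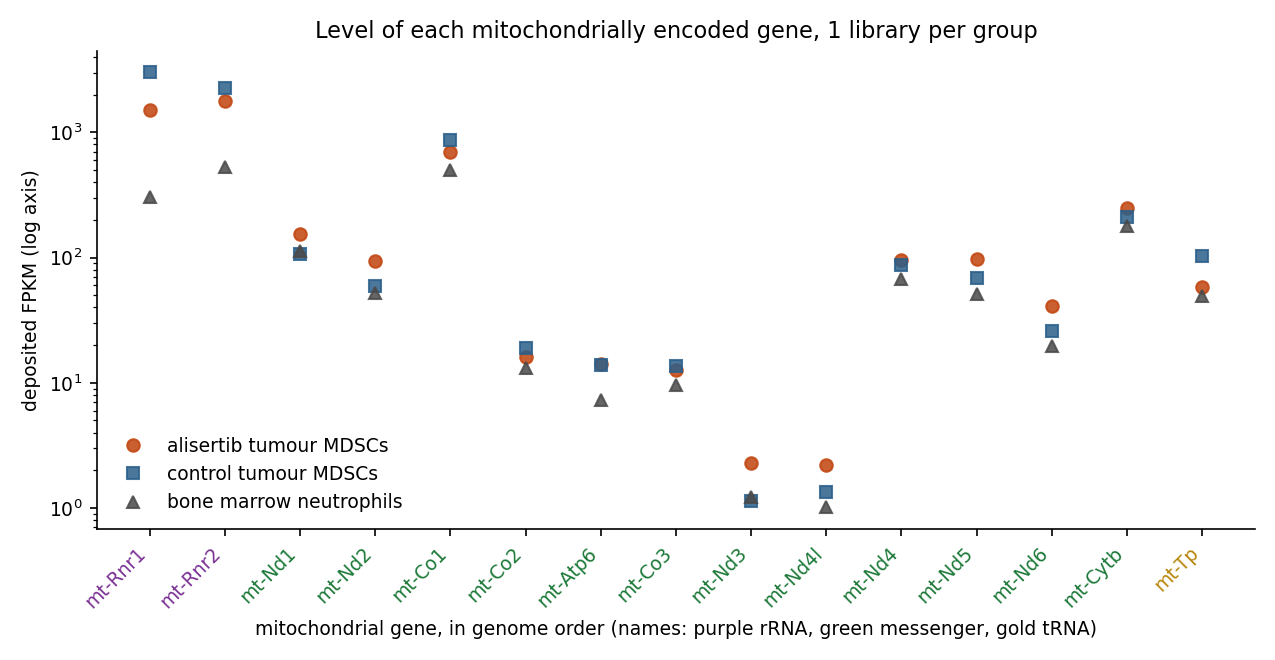
Deposited FPKM (log axis) of the 15 mitochondrially encoded genes in genome order, with 1 point per library: alisertib tumour MDSCs (circles), control tumour MDSCs (squares) and bone marrow neutrophils (triangles). The ribosomal RNA genes reach 3005 in the control library, the 7 upper messengers lie between 19.7 and 871, and mt-Co2, mt-Atp6, mt-Co3, mt-Nd3 and mt-Nd4l lie between 1.01 and 18.9.

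The 5 messengers with low FPKM were also those whose sequence is copied almost whole in nuclear gene models. Every 50-base window of each mitochondrial gene was compared with the nuclear transcripts of GENCODE M21, and the share of windows found exactly there was 100% for mt-Co2, 99.9% for mt-Co3, 99.5% for mt-Atp6, 98.8% for mt-Nd4l and 98.0% for mt-Nd3. The share was 62.2% for mt-Nd4 and 51.1% for mt-Co1. It was 8.19% for mt-Nd2, 7.61% for mt-Nd5 and 1.04% for mt-Rnr2, and 0% for mt-Rnr1, mt-Nd1, mt-Nd6, mt-Cytb and mt-Tp. With 100-base windows mt-Co1 was at 30.8% and mt-Nd4 at 60.8%. Copies outside annotated transcripts were not searched, and the sources used here give neither the read length nor the treatment of reads with several matches. Counts of the 7 genes above 10% are therefore uncertain in level, and their part in the low FPKM was not tested.

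The copies that account for most of these windows lie side by side on the minus strand of chr1 (GRCm38), from chr1:24611535 to chr1:24616197, in the mitochondrial gene order. Gm28661 (chr1:24614885-24615565) matched 681 bases of mt-Co2 with 0 mismatches, Gm10925 (chr1:24613974-24614651) 678 bases of mt-Atp6 with 0, and Gm28437 (chr1:24613189-24613971) 783 bases of mt-Co3 with 0. Gm10222 (chr1:24612407-24612700) matched 294 bases of mt-Nd4l with 0 mismatches and Gm28439 (chr1:24611535-24612410) 876 bases of mt-Nd4 with 0. Gm29216 (chr1:24615706-24616197) matched the last 492 bases of mt-Co1 with 6 mismatches. Gm28438 (chr1:24612775-24613119) matched 345 bases of mt-Nd3 with 1 mismatch, T3C, where the mitochondrial base comes first and positions are counted from 1 at the 5′ end of mt-Nd3. mt-Nd4l and Gm10222 are printed to show how little sequence separates a mitochondrial gene from its nuclear copy. Capitals mark the last 3 bases of mt-Nd4l, which lie beyond the end of the Gm10222 model (GENCODE M21 transcripts, GRCm38).
mt-Nd4l: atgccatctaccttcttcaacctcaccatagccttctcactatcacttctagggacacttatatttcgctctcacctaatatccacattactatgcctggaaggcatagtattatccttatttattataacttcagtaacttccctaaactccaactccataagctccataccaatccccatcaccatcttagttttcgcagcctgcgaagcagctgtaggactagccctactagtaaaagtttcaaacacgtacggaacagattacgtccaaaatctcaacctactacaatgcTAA
Gm10222: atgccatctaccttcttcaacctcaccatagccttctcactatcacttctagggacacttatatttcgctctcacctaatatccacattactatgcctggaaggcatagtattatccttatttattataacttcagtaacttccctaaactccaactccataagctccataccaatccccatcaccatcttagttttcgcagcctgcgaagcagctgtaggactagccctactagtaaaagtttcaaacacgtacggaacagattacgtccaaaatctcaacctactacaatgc
mt-Nd4l had 14, 8 and 7 counts in the alisertib, control and marrow samples, and Gm10222 had 22, 16 and 13.
mt-Nd3 had 17, 8 and 10 counts (alisertib, control, bone marrow), and Gm28438 had 114, 75 and 19. The annotated copy thus had more counts than the mitochondrial gene in each library, for both pairs. The same held in each library for mt-Atp6, with 207, 191 and 115 counts, and Gm10925, with 292, 303 and 200. It held as well for mt-Co3, with 211, 213 and 175 counts, and Gm28437, with 235, 291 and 214. For mt-Co2, with 235, 259 and 209 counts, and Gm28661, with 198, 245 and 241, the order depended on the library. For mt-Nd4 and mt-Co1, whose chr1 copies cover only part of the gene, the mitochondrial gene had far more counts. mt-Nd4 had 2800, 2407 and 2160 counts, and Gm28439 had 68, 66 and 45. mt-Co1 had 22935, 26993 and 18104 counts, and Gm29216 had 215, 289 and 190.

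**Figure D2:**
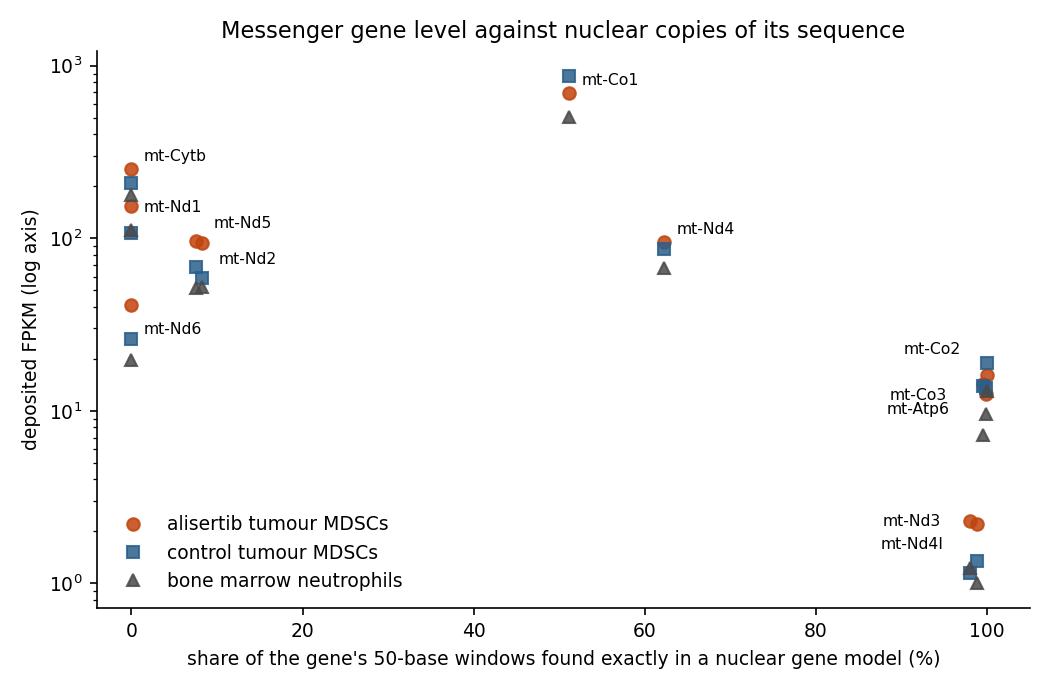
Deposited FPKM (log axis) of the 12 mitochondrial messenger genes against the share of their 50-base windows found exactly in a nuclear gene model (percent), with 1 point per gene and library. The 5 genes at 98.0% or more lie at or below 18.9, and the 5 genes at 8.19% or less lie at 19.7 or more.

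Between the tumour libraries, the question addressed by the design is how MDSCs from alisertib-treated mice differ from those of control mice. The ribosomal RNAs were lower in the alisertib library, while all 7 complex I messengers had a ratio above 1 and all 3 complex IV messengers a ratio below 1. The complex I ratios stayed above 1 under each scaling tried, whereas mt-Co2 and mt-Co3 moved above 1 with total counts in place of TMM factors. No member differed by the size rule used here, under which a gene is called when the bound nearest to 1 of the 95% counting interval of its ratio is at least 2-fold. That is 0 of the 13 members at 1 CPM or more, against 2.98% of the 13019 genes tested (1.8% higher and 1.18% lower). With 1 library per group no test between conditions was possible, and the intervals cover counting error only, for reads that are not independent molecules.

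mt-Rnr1 had 1472 CPM in the alisertib and 2946 CPM in the control library. The alisertib value was 2.0-fold lower (interval 1.97 to 2.03, log2 ratio -1.0), just short of the rule, and the gene was called lower when DESeq2 size factors were used (log2 ratio -1.05). mt-Rnr2 had 2881 and 3678 CPM, 1.28-fold lower (1.26 to 1.29, log2 ratio -0.35). The transfer RNA mt-Tp had 4.05 and 7.06 CPM, 1.74-fold lower (1.32 to 2.32, log2 ratio -0.80). These 3 non-messenger genes thus all lay below 1, and the small-subunit RNA lay further from 1 than the large-subunit RNA.

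Complex I messengers had a median log2 ratio of 0.67 over all 7 members and 0.53 over the 5 past the filter, beside 0.00 over all genes tested. mt-Nd2 had 100.2 and 62.8 CPM (log2 ratio 0.67, ratio interval 1.49 to 1.71), and mt-Nd6 had 22.1 and 13.8 CPM (0.67, 1.37 to 1.86). mt-Nd1 had 152 and 106 CPM, a ratio of 1.44 (1.36 to 1.52), and mt-Nd5 had 181 and 128 CPM, a ratio of 1.41 (1.34 to 1.49). These 4 genes have under 10% copied windows. mt-Nd4 had 135 and 123 CPM (log2 ratio 0.13, ratio interval 1.04 to 1.16). For mt-Nd3, with a ratio of 1.94 (0.818 to 5.35), and mt-Nd4l, with a log2 ratio of 0.68 (ratio interval 0.645 to 4.53), no direction was detectable at this depth.

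mt-Cytb of complex III had 295 CPM in the alisertib and 247 CPM in the control library, a ratio of 1.20 (1.15 to 1.24). mt-Co1 of complex IV went the other way, with 1105 and 1382 CPM, 1.25-fold lower (1.23 to 1.27). The intervals of mt-Co2 (ratio 0.854, 0.713 to 1.02), mt-Co3 (0.932, 0.767 to 1.13) and mt-Atp6 (1.02, 0.834 to 1.25) all held 1, and mt-Atp6 fell below 1 with DESeq2 size factors. Over the 12 messengers 9 ratios lay above 1 and 3 below, with intervals wholly above 1 for 6 and wholly below for 1. The median log2 ratio was 0.38 over the 12 and 0.19 over the 10 past the filter, which leaves out mt-Nd3 and mt-Nd4l. The medians of the 12 lower and 12 upper interval bounds were -0.11 and 0.45, on either side of 0. Since mt-Co1 holds most messenger counts, the 12 messengers summed gave a ratio of 0.965 (0.952 to 0.978), which turned to 1.16 with total counts, while the 5 messengers with under 10% copied windows (mt-Nd1, mt-Nd2, mt-Nd5, mt-Nd6 and mt-Cytb) summed gave 751 and 557 CPM and a log2 ratio of 0.43. Moderate ratios on single libraries are common here, since 69.8% of all genes tested lay within 1.5-fold of 1 and the rest beyond.

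Marker levels of other cells also differed between the tumour libraries. The 11 neutrophil markers summed to 15041 CPM in the alisertib and 34296 CPM in the control library, with 6 called lower. The 7 B cell markers summed to 43.4 and 5.63 CPM, with 6 called higher, and the 12 T and NK cell markers to 51.7 and 18.1 CPM, with 7 of the 10 past the filter called higher. Among all genes tested 1.8% were called higher and 1.18% lower in this comparison. Of the T and NK list Klrb1c was at 0 in both tumour libraries and Ncr1 at 0 in the alisertib library. The 10 monocyte and macrophage markers summed to 617 and 664 CPM, with none called in either direction. The part of these markers in the mitochondrial ratios was not tested, and in bulk RNA fewer cells of a type and less RNA per cell cannot be told apart.

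**Figure D3:**
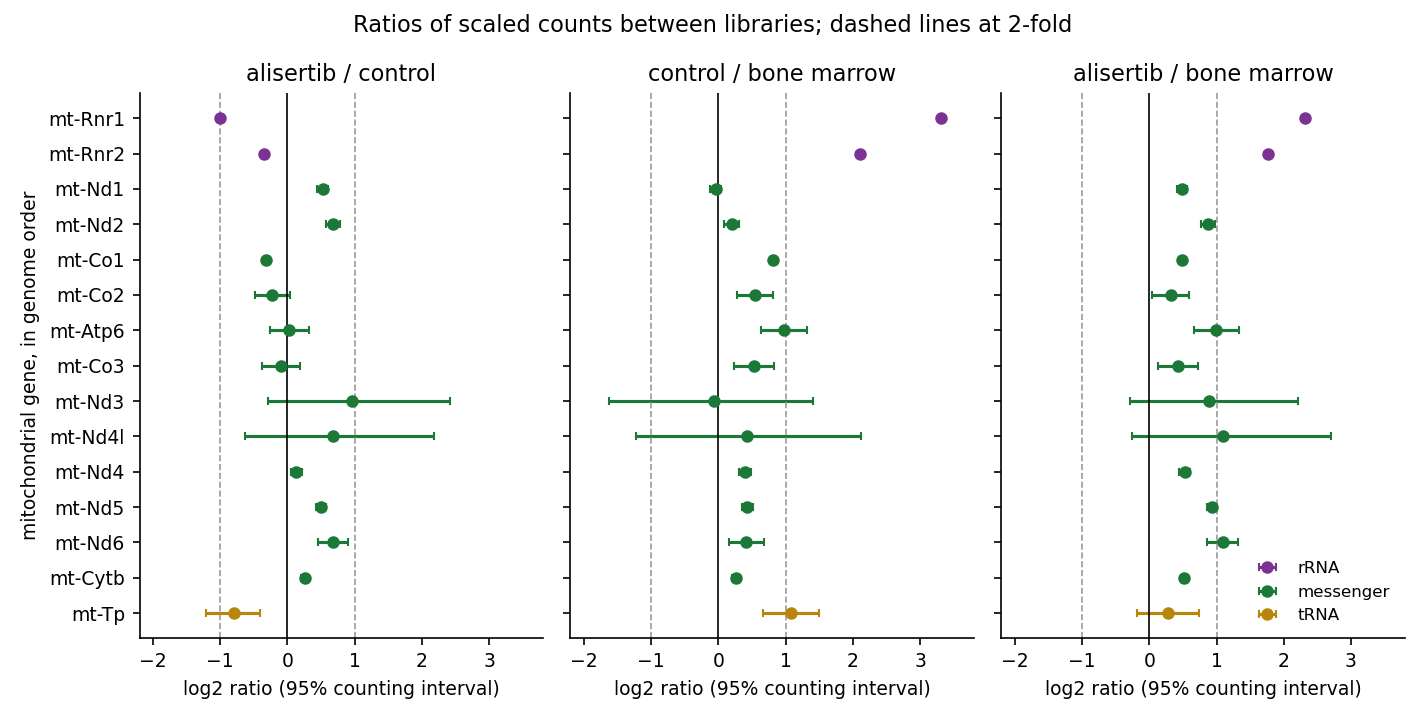
Log2 ratio of scaled counts for the 15 mitochondrial genes in genome order, in the 3 pairs of libraries, with 95% counting intervals and dashed lines at 2-fold. mt-Rnr1 and mt-Rnr2 (purple) lie left of 0 in the alisertib against control panel and beyond 2-fold to the right in both panels against bone marrow, where the messengers (green) lie closer to 0.

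Against bone marrow neutrophils the ratios of the ribosomal RNAs lay far above 1 in both tumour libraries, and those of most messengers moderately above 1. These comparisons share the bone marrow library, so their values are given side by side. In the control library 2 of 13 members were called higher, mt-Rnr1 and mt-Rnr2, and 0 lower, against 18.3% and 22.9% of all genes tested. In the alisertib library mt-Rnr1 and mt-Rnr2 were called higher and 0 lower, against 18.7% and 22.3%. In either direction together, 41.3% and 41.0% of all genes were called. The share of members called higher, 2 of 13, is close to that among all genes. The difference between the classes was that both ribosomal RNA genes and none of the 10 messengers past the filter met the rule.

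mt-Rnr1 had 297 CPM in bone marrow, against 2946 CPM in the control library (9.93-fold higher, interval 9.69 to 10.2) and 1472 CPM in the alisertib library (4.96-fold, 4.83 to 5.10). mt-Rnr2 had 851 CPM in bone marrow and was 4.32-fold higher in the control library (4.25 to 4.39) and 3.38-fold in the alisertib library (3.33 to 3.44). The small-subunit RNA again differed more than the large-subunit RNA. mt-Tp had 3.34 CPM in bone marrow, with a ratio of 2.11 (1.59 to 2.83) in the control and 1.21 (0.879 to 1.67) in the alisertib library, and was not called in either.

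The messengers lay much nearer to bone marrow. Their median log2 ratio over all 12 was 0.42 in the control and 0.70 in the alisertib library. Over the 10 past the filter it was 0.42 and 0.52, beside -0.14 and -0.09 over all genes tested. In the alisertib library all 12 had a ratio above 1, with intervals wholly above 1 for 10. In the control library 10 of 12 did, with intervals wholly above 1 for 9 and below for none, and the exceptions were mt-Nd1 and mt-Nd3, which moved above 1 with DESeq2 size factors. mt-Nd2 moved below 1 in the control library with total counts. The 5 messengers with under 10% copied windows had median log2 ratios of 0.26 in the control and 0.87 in the alisertib library. Their summed ratios were 1.18 (1.14 to 1.21) and 1.58 (1.55 to 1.62). As a share of all counts they took 0.0496% in the control, 0.0805% in the alisertib and 0.0498% in the bone marrow library.

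Within complex I, mt-Nd1 had 109 CPM in bone marrow, with a ratio of 0.974 (0.918 to 1.03) in the control and 1.40 (1.33 to 1.48) in the alisertib library. mt-Nd5 had 95.1 CPM, with ratios of 1.35 (1.27 to 1.43) and 1.91 (1.81 to 2.01), and mt-Nd6 had 10.4 CPM, with 1.33 (1.12 to 1.59) and 2.13 (1.82 to 2.5). mt-Nd2 had 54.8 CPM, with log2 ratios of 0.20 and 0.87. Each of these 4 had a higher ratio to bone marrow in the alisertib than in the control library. mt-Nd4 had 93.6 CPM in bone marrow and log2 ratios of 0.40 and 0.53.

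mt-Cytb had 205 CPM in bone marrow, with ratios of 1.20 (1.15 to 1.25) in the control and 1.44 (1.38 to 1.49) in the alisertib library. mt-Co1 had 785 CPM, with 1.76 (1.73 to 1.79) and 1.41 (1.38 to 1.44), the reverse order. mt-Co2 had 9.06 CPM in bone marrow and log2 ratios of 0.55 and 0.32, mt-Co3 7.59 CPM and 0.52 and 0.42, and mt-Atp6 4.99 CPM and 0.97 and 1.0. mt-Co1 thus had the larger ratio in the control library and the complex III gene in the alisertib library. mt-Co2 and mt-Co3 had the same order as mt-Co1. Their alisertib over control intervals (0.713 to 1.02 and 0.767 to 1.13) held 1, and the order turned with total counts.

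As a share of all counts, the 15 members took 0.684% in the alisertib (95% exact Clopper-Pearson interval 0.680 to 0.687), 0.776% in the control (0.773 to 0.780) and 0.265% in the bone marrow library (0.263 to 0.267). The ribosomal RNAs took 0.466%, 0.589% and 0.120%, and the messengers 0.217%, 0.187% and 0.144%. Of the mitochondrial counts themselves, ribosomal RNA made up 68.2%, 75.9% and 45.4%, and messengers 31.7%, 24.0% and 54.4%. By these counts, bone marrow was the only one of the 3 libraries in which messengers outnumbered ribosomal RNA. mt-Atp8 had no row, and messengers with more than 10% copied windows are uncertain in level. The split between the classes is therefore uncertain as well. mt-Tp made up 0.0634%, 0.0809% and 0.132%.

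Ratios between members within a library do not depend on how the libraries are scaled to each other. Per kilobase, mt-Rnr1 stood to mt-Rnr2 at 0.846 in the alisertib (95% counting interval 0.835 to 0.858), 1.33 in the control (1.31 to 1.34) and 0.577 in the bone marrow library (0.561 to 0.593). The small-subunit RNA was thus above the large-subunit RNA only in the control library of these 3. The summed ribosomal RNAs stood to the 5 messengers with under 10% copied windows at 12.5 (12.3 to 12.7), 25.7 (25.2 to 26.2) and 5.23 (5.12 to 5.35). Against mt-Cytb alone, which has no copied window, mt-Rnr1 stood at 5.97, 14.3 and 1.73 and mt-Rnr2 at 7.06, 10.8 and 3.0. In each of these ratios of ribosomal RNA to messenger the control library was highest, bone marrow lowest and the alisertib library between them, with counting intervals that did not overlap.

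Messenger to messenger ratios differed less from bone marrow than the ratios of ribosomal RNA to messenger did. Between the tumour libraries this did not hold throughout. There mt-Co1 to mt-Nd2 differed 2.0-fold, against 1.53-fold for mt-Rnr2 to mt-Cytb. mt-Co1 to mt-Cytb per kilobase was 2.77 in the alisertib, 4.15 in the control and 2.83 in the bone marrow library, and mt-Co1 to mt-Nd1 was 4.49, 8.10 and 4.48. Over these 2 denominators the control library was highest and the alisertib and bone marrow libraries had close values. mt-Co1 to mt-Nd2 was 7.41 (7.09 to 7.76), 14.8 and 9.62 (9.09 to 10.2), so that alisertib and bone marrow differed there, and mt-Co1 to mt-Co2 was 43.2 (38.0 to 49.3), 46.1 (40.8 to 52.3) and 38.3, with overlapping intervals in the tumour libraries. mt-Cytb to mt-Nd1 was 1.62, 1.95 and 1.58. mt-Nd5 to mt-Nd1 was 0.625, 0.637 and 0.460 and mt-Nd2 to mt-Nd1 was 0.606, 0.547 and 0.465, so that bone marrow was lowest for both. mt-Cytb to the minus-strand mt-Nd6 was 6.07, 8.10 and 8.99, lowest in the alisertib library.

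**Figure D4:**
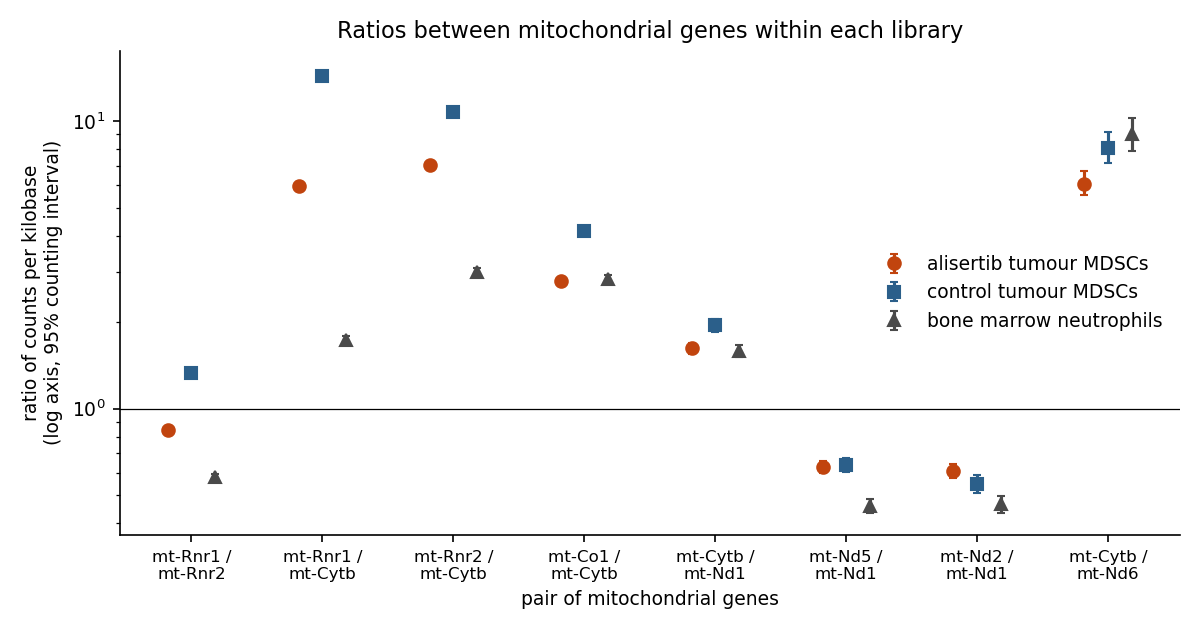
Ratio of counts per kilobase (log axis, 95% counting intervals) for 8 pairs of mitochondrial genes within each library: alisertib tumour MDSCs (circles), control tumour MDSCs (squares) and bone marrow neutrophils (triangles). The 3 pairs that start with a ribosomal RNA spread the most, from 1.73 to 14.3 for mt-Rnr1 to mt-Cytb.

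Transcripts that lack a poly(A) tail or have a short one were examined because ribosomal and transfer RNA in mitochondria carry short tails or none and the way RNA was selected is not stated. Of 20 such genes listed, 9 had a row and 8 reached 1 CPM, and the list summed to 630 CPM in the alisertib, 1206 CPM in the control and 264 CPM in the bone marrow library, the same order as the ribosomal RNAs. Hist1h1c alone gave 508, 1061 and 215 CPM of these sums, and without it they were 122, 145 and 48.9 CPM. In the alisertib against control comparison 1 was called lower, the linker histone Hist1h1c, with 10542 and 20731 counts (2.09-fold lower, interval 2.04 to 2.14). Rpph1, the RNA of nuclear RNase P, had 112 and 208 counts (1.97-fold lower, 1.56 to 2.51), and Rn7sk, an RNA that restrains transcription elongation, had 306 and 430 (1.49-fold lower, 1.29 to 1.73). Hist1h4i, with 1112 and 1081 counts, had a log2 ratio of -0.05. Against bone marrow 5 of the 8 were called higher in each tumour library (62.5%, against 18.3% and 18.7% of all genes), all of them histones: Hist1h1c, Hist1h1e, Hist1h4i, Hist1h2bc and Hist1h4d. Rn7sk, which is not a histone, had log2 ratios of 0.40 in the control and -0.18 in the alisertib library. The part of RNA selection in the ribosomal RNA ratios was not tested.

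Over all complexes together, the nuclear partners of the mitochondrial messengers had negative median log2 ratios against bone marrow. Of 78 nuclear genes for complexes I to IV and the ATP synthase, all past the filter, 0 were called higher and 9 lower (11.5%) in the control library, with a median log2 ratio of -0.53. In the alisertib library 0 were called higher and 17 lower (21.8%), with a median of -0.57. Among all genes tested 22.9% and 22.3% were called lower, so these shares are at or below the background, while the medians over all genes were -0.14 and -0.09. With total counts 15 were called lower in the control library, and with DESeq2 size factors 1 was called higher there, the complex III gene Uqcrq. The 12 mitochondrial messengers summed to 2024 CPM in the alisertib, 2097 CPM in the control and 1375 CPM in the bone marrow library, and the 78 nuclear genes to 2066, 2308 and 2826 CPM. The mitochondrial part of the summed messengers was 49.5%, 47.6% and 32.7%. This part lacks mt-Atp8 and includes messengers with more than 10% copied windows, whose level is uncertain. Per length, the summed FPKM of the mitochondrial messengers stood to that of the nuclear genes at 0.853, 0.759 and 0.494. Bone marrow was thus highest for the nuclear sum and lowest for the mitochondrial one.

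By complex, 6 of 36 nuclear complex I genes were called lower in the control (16.7%, against 22.9% of all genes) and 11 in the alisertib library (30.6%, against 22.3%). The control count was 4 with DESeq2 size factors and 11 with total counts. The list had median log2 ratios of -0.75 and -0.81, whereas the 7 mitochondrial complex I messengers had medians of 0.40 and 0.89. Over the 5 of these messengers past the filter the medians were 0.40 and 0.87. Ndufb7, an accessory subunit, had 368 counts in the alisertib, 468 in the control and 1562 in the bone marrow library and was lower by 2.82-fold (2.55 to 3.14) in the control and 3.82-fold (3.41 to 4.29) in the alisertib library. Ndufb9, one of the most abundant of the list, had 722, 822 and 778 counts and was called in neither. Of 9 complex III genes Uqcrc1 and Uqcrc2, the core subunits, were called lower in both tumour libraries, and Cyc1, the cytochrome c1, in the alisertib library. The shares called lower were 22.2% in the control and 33.3% in the alisertib library, against 22.9% and 22.3% of all genes. Uqcrc1 had 417, 524 and 1471 counts. The 9 genes had medians of -0.61 and -0.56.

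Nuclear complex IV genes lay near bone marrow as a list, with median log2 ratios of 0.01 in the control and -0.12 in the alisertib library, and the first became -0.23 with total counts. In the control library 6 of the 12 lay above 0 and 6 below, and the list summed to 612 CPM in the alisertib, 690 CPM in the control and 593 CPM in the bone marrow library. Of the 12 genes 0 were called in the control library and 1, Ndufa4, lower in the alisertib library, with 181, 195 and 538 counts in the same library order. The shares called lower were 0% and 8.33%, below the 22.9% and 22.3% of all genes. The most abundant member, Cox8a, had 3297, 3365 and 2254 counts and a ratio to bone marrow of 1.76 (1.67 to 1.86) in the control library. The 17 ATP synthase genes had medians of -0.43 and -0.42, and Atp5f1, a stalk subunit, was called lower in both tumour libraries, with 853, 1112 and 3078 counts, and Atp5c1, the rotating gamma subunit, in the alisertib library, with 654, 769 and 1637. For this list the shares called lower were 5.88% in the control and 11.8% in the alisertib library, also below those among all genes. The 4 genes of complex II, which has no mitochondrially encoded subunit, had no call and median log2 ratios of -0.11 and -0.21.

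Between the tumour libraries none of the 78 nuclear genes was called in either direction. Their median log2 ratio was -0.15, with 25 of 78 above 0, and their summed ratio was 0.895 (0.883 to 0.907), but with total counts the median was 0.12 and the summed ratio 1.08, so the direction depends on the scaling. For complex I the median was 0.67 for the mitochondrial and -0.07 for the nuclear genes, the latter 0.20 with total counts. Over the 5 mitochondrial complex I genes past the filter the median was 0.53. For complex IV it was -0.23 and -0.17, the latter 0.10 with total counts.

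Genes that transcribe, process and translate the mitochondrial genome were called in neither direction between the tumour libraries with TMM factors, in any of 4 lists (with total counts the synthetase Yars2 was called higher, at a log2 ratio of 1.70): transcription and replication (15 genes past the filter, median log2 ratio 0.37), RNA processing and modification (32 genes, 0.14), mitochondrial ribosomal proteins (76 genes, 0.13) and mitochondrial tRNA synthetases (20 genes, -0.05, and 0.22 with total counts). Against bone marrow their medians were negative, at -0.75, -0.63, -0.67 and -0.57 in the control and -0.38, -0.43, -0.50 and -0.46 in the alisertib library. The proteins of the mitochondrial ribosome thus had median ratios below 1 in the libraries in which its RNAs were higher.

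In the transcription list Polrmt, the mitochondrial RNA polymerase, had 36 counts in the alisertib, 12 in the control and 89 in the bone marrow library and was called lower in the control library (6.06-fold, interval 3.42 to 12.6). Tk2, the mitochondrial thymidine kinase, was the other gene called lower there, with 624, 427 and 1464 counts. Mterf2, of the mitochondrial transcription termination factor family, was called higher in both tumour libraries, with 192, 96 and 20 counts. Polg, the DNA polymerase of mitochondria, had 1676, 1586 and 2227 counts and was not called. Low counts bound the precision for Polrmt in particular. Of the 15 genes past the filter 6.67% were called higher and 13.3% lower in the control library, against 18.3% and 22.9% of all genes. In the alisertib library 6.67% were called higher and 0% lower, against 18.7% and 22.3%.

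In the processing list Supv3l1, a helicase of the RNA degradation complex, was called higher in both tumour libraries, with 453 counts in the alisertib, 530 in the control and 170 in the bone marrow library. Mrm1, a methyltransferase of the large-subunit RNA, was called higher in both as well, with 178, 173 and 66 counts. Called lower in the alisertib library were Tbrg4, Mterf4, Hsd17b10, Gtpbp3 and Ptcd2, of which Mterf4 acts in assembly of the mitochondrial ribosome, with 37, 68 and 245 counts. Hsd17b10, a subunit of the mitochondrial RNase P that cuts out transfer RNAs, had 113, 114 and 394 counts. Of the 32 genes past the filter 6.25% were called higher and 18.75% lower in the control library. In the alisertib library 6.25% were called higher and 15.6% lower. These shares lie below those among all genes (18.3% and 22.9%, and 18.7% and 22.3%). Of the 76 ribosomal proteins 2 were called higher and 11 lower in the control library (2.63% and 14.5%), and 4 higher and 12 lower in the alisertib library (5.26% and 15.8%), all below the shares among all genes (18.3% and 22.9%, and 18.7% and 22.3%). With total counts 18 were called lower in the control library. Mrpl52 (608, 339 and 50 counts) and Mrpl54 (242, 262 and 76) were called higher in both.

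Among the tRNA synthetases, Nars2 and Mars2 were called higher in both tumour libraries, for asparagine with 577, 715 and 66 counts in the same library order and for methionine with 440, 436 and 158. Yars2, for tyrosine, was called lower in both, with 64, 22 and 252 counts. Hars2, Iars2 and Rars2 were the others called lower in the control library, and Iars2, Rars2, Vars2 and Cars2 in the alisertib library. Of the 20 synthetases past the filter 10% were called higher and 20% lower in the control library, against 18.3% and 22.9% of all genes. In the alisertib library 10% were called higher and 25% lower, against 18.7% and 22.3%. Of 8 regulators of mitochondrial biogenesis Creb1 (1072, 1177 and 3009 counts) and Gabpb2 (772, 544 and 2155), the first a transcription factor and the second a subunit of one, were called lower in both, and none was called between the tumour libraries. The share called lower was 25% in each tumour library, close to the 22.9% and 22.3% of all genes.

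Gauges of mitochondrial content gave no single direction against bone marrow. Of 17 outer membrane, import and matrix genes 3 were called higher in the control library, Hspa9, Tomm20 and Cycs, and 2 lower, Tomm22 and Tomm70a. These are 17.6% and 11.8%, against 18.3% and 22.9% of all genes. In the alisertib library 2 were called higher and 1 lower (11.8% and 5.88%, against 18.7% and 22.3%). All of these shares lie below those among all genes. The list had median log2 ratios of -0.06 in the control and -0.27 in the alisertib library. Hspa9, the matrix chaperone, had 3863, 3146 and 488 counts and Tomm20, an import receptor, had 2416, 2276 and 625, and both were called higher in both tumour libraries. Tomm22, another import receptor, was called lower in both, with 461, 503 and 1430. Cs, the citrate synthase often used as a measure of mitochondrial mass, had a ratio to bone marrow of 0.956 (0.9 to 1.02) in the control and 0.712 (0.668 to 0.759) in the alisertib library.

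**Figure D5:**
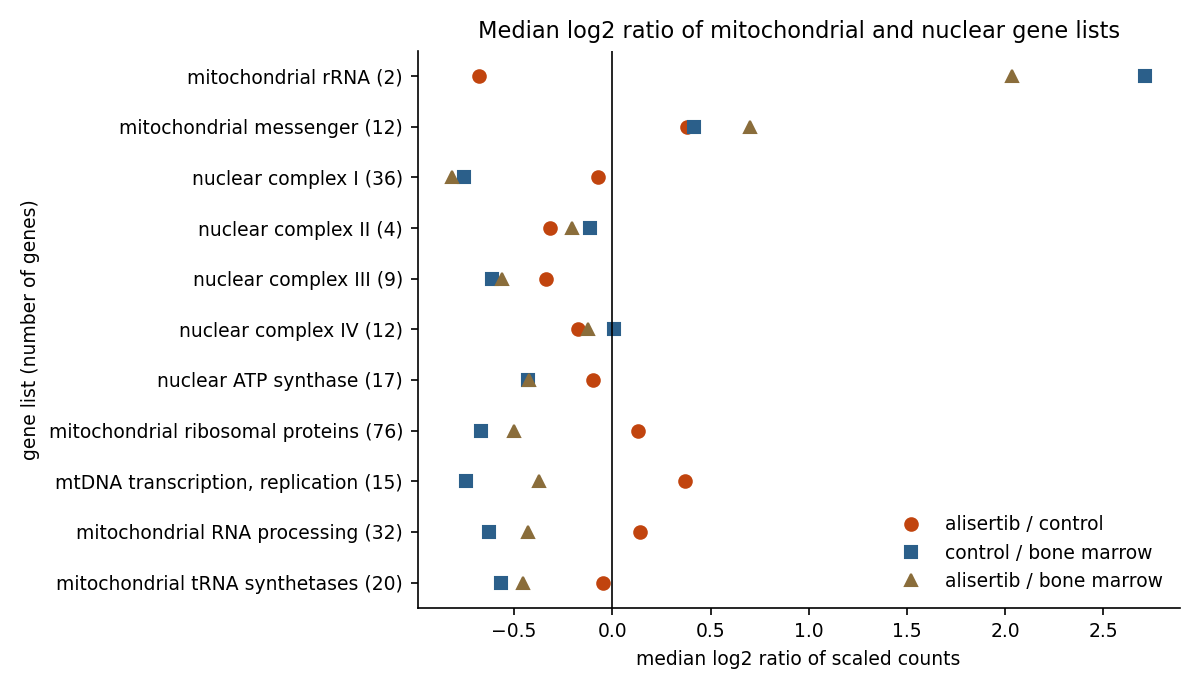
Median log2 ratio of scaled counts for lists of mitochondrial and nuclear genes, for alisertib over control (circles), control over bone marrow (squares) and alisertib over bone marrow (triangles), with the number of genes in brackets. The mitochondrial ribosomal RNAs reach 2.71 and 2.04 against bone marrow, the mitochondrial messengers 0.42 and 0.70, and the nuclear complex I genes -0.75 and -0.81.

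Beside the bone marrow comparisons, the neutrophil markers summed to 104116 CPM in the bone marrow library against 34296 in the control and 15041 in the alisertib library, so markers of the labelled lineage were measured in each library but at different levels. The T and NK cell markers summed to 146 CPM in bone marrow, of which Cd3d gave 136. Without Cd3d they summed to 9.71 CPM there, 9.42 CPM in the control and 45.5 CPM in the alisertib library. The B cell markers summed to 207 CPM and the erythroid markers to 71.6 CPM in bone marrow. The 3 epithelial markers with a row summed to 17.6 CPM in the alisertib, 16.3 CPM in the control and 5.68 CPM in the bone marrow library. The 4 endothelial markers summed to 52.9, 50.1 and 10.7 CPM in the same order. Of each of these lists 2 genes were called higher in each tumour library. Single members of the epithelial, endothelial and T and NK lists, Epcam, Kdr and Trac, were at 0 in bone marrow. Monocyte and macrophage markers summed to 508 CPM there, with 5 called higher in the control and 6 in the alisertib library, and 2, Ly6c2 and Ccr2, called lower in both. Among all genes 18.3% and 18.7% were called higher and 22.9% and 22.3% lower in the control and alisertib libraries. Cytosolic ribosomal protein transcripts, 89 genes past the filter, summed to 11720 CPM in the alisertib, 10181 CPM in the control and 7589 CPM in the bone marrow library. Tissue of origin, tumour bearing and cell mixture differ together between these libraries and cannot be told apart, and their part in the mitochondrial ratios was not tested.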

How the data were processed

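RNA-seq of 3 libraries, 1 per group by the labels, was examined for the genes with symbols starting with mt-. The members and gene lists were chosen with earlier results of these data known. The authors deposited raw counts per gene and FPKM values; per the submitters' processing notes CASAVA 1.8, STAR 2.5.1b and 2 builds, mm10 and mm9, were used in roles not stated. Per the labels' protocols, FACSAria sorting, Trizol extraction and the NEBNext Ultra kit were used. The sources used here do not name the counting tool, annotation or strand setting. Symbols were matched for 19648 of 19723 identifiers through GENCODE M21 (GRCm38), which also gave positions, lengths and sequences.

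Counts (totals 19373087, 21959748 and 21987097 for alisertib, control and bone marrow) were scaled by TMM factors of 1.07148, 0.88952 and 1.0492 (edgeR 4.0.16, R 4.3.3). Genes at 1 CPM or more in at least 1 library were tested (13019). Log2 ratios added 0.5 to each count, and 95% intervals are exact (Clopper-Pearson, scipy 1.17.1) for the ratio given the summed count. They cover counting error only, and no p-value was computed. Ratios within a library used counts per kilobase of exon. Levels between genes used the deposited FPKM, which equals the count divided by gene length and by library sizes of 21374400, 20054100 and 23323800 for each member. Named genes were all members and, of each list, the 3 most abundant and those called where 5 or fewer were called in a direction, of which the text gives a part. Kinases with symbols starting with Rps6k were left out of the cytosolic ribosomal list. Alternatives were DESeq2 1.42.0 size factors, total counts, TMM without mitochondrial genes, other filters, a 1.5-fold rule, other pseudocounts and FPKM. The procedure was tested on simulated data.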

Additional observations from a re-analysis of the deposited data

How the results depend on the processing

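The medians of the mitochondrial messengers and of the mitochondrial ribosomal RNAs kept their direction under every alternative run. For alisertib over control, the messenger median log2 ratio of 0.38 became 0.65 with total counts, and the ribosomal RNA median of -0.68 became -0.73 with DESeq2 size factors and -0.41 with total counts. Against bone marrow, the control library's messenger median of 0.42 became 0.18 with total counts, and its ribosomal RNA median of 2.71 became 2.79 with DESeq2 size factors and 2.47 with total counts. Total counts move every log2 ratio by 0.27 for alisertib over control and by -0.24 for control over bone marrow, and DESeq2 size factors by -0.05 and 0.08.

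Members called lower for alisertib over control went from 0 to 1, mt-Rnr1, both with DESeq2 size factors and with a 1.5-fold rule. With that rule 5 members were called higher in the control library over bone marrow (mt-Rnr1, mt-Rnr2, mt-Co1, mt-Tp and mt-Atp6) and 6 in the alisertib library (mt-Rnr1, mt-Rnr2, mt-Nd2, mt-Nd5, mt-Nd6 and mt-Atp6), each against 2. Among all genes the calls for alisertib over control were 388, against 1257 with the 1.5-fold rule and 191 with a filter at 10 CPM, and the filter gave 3520 and 3507 calls for the control and alisertib libraries over bone marrow, against 5371 and 5344. Of the alisertib over control calls 60.3% were higher, against 52.7% with DESeq2 size factors, 84.0% with total counts, 34.6% with the 10 CPM filter and 49.1% with the 1.5-fold rule.

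Without the 20 most abundant other genes the mitochondrial share of counts was 0.777%, 0.900% and 0.310% (alisertib, control, bone marrow), and of summed FPKM it was 1.39%, 1.55% and 0.506%. Per kilobase the ribosomal RNA share was 76.9% in the control and 44.1% in the bone marrow library. Chosen after seeing the data, total counts and DESeq2 size factors were also applied to the nuclear lists and to the summed messengers. With total counts the alisertib over control log2 values turned positive for the summed messengers (0.22), all nuclear respiratory chain genes (0.12), nuclear complex I (0.20), nuclear complex IV (0.10), the nuclear ATP synthase (0.17) and the tRNA synthetases (0.22), and control over bone marrow turned to -0.23 for nuclear complex IV. With DESeq2 size factors the biogenesis regulators turned to -0.0040 for alisertib over control. Sums without Hist1h1c and without Cd3d were added in the same way. No paired analysis was possible because each group has 1 library, and replicates could not be left out for the same reason. Depth limits mt-Nd3 and mt-Nd4l most, and the spread between mice is unknown.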

Other observations

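The minus strand of the mitochondrial genome carries 2 of the 15 members, mt-Nd6 and mt-Tp. Together they took 0.409% of mitochondrial counts in the alisertib, 0.239% in the control and 0.542% in the bone marrow library. Since the strand setting of the counting is not given, these counts cannot be read as transcription of the minus strand. Within the pair the directions differed between the tumour libraries: mt-Nd6 had a log2 ratio of 0.67 and mt-Tp one of -0.80 for alisertib over control. Gm28438, the annotated nuclear copy of mt-Nd3, was the only one of the 9 nuclear copies with counts, 8 of them past the filter, that met the size rule. It was called higher over bone marrow in the control library (log2 ratio 2.19, ratio interval 2.79 to 8.17) and in the alisertib library (2.71, 4.08 to 11.5). mt-Nd3 itself, with 17 counts or fewer per library, had log2 ratios of -0.06 and 0.89. Its ratio intervals, 0.324 to 2.66 and 0.817 to 4.62, both held 1. With 1 mismatch in 345 aligned bases, most reads of this pair cannot be assigned by sequence, so the contrast between them is uncertain.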
